A study of Homo sapiens with 6 samples.

Results

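The genes described here are 10 that hold epithelial cells together or sit at their surface: EPCAM, CLDN1, CLDN4, CLDN7, JUP, DSP, TJP1, OCLN, F11R and SPINT2. They were taken by gene symbol from the array's annotation, together with every probe that carries the symbol. Of these 10 genes, 9 had a named probe, 16 probes in all, among 18849 named genes on the array. F11R was not analysed here. Their transcripts were read on 6 Illumina bead arrays, each with RNA from SKOV3ip1, a derivative of the ovarian cancer cell line SKOV3. There were 3 samples with control siRNA, called siCon, and 3 with siRNA to STAT3, called siSTAT3. STAT3 is a transcription factor that is switched on downstream of interleukin and growth factor signals. Both groups are siRNA-treated cells of 1 line.

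Tight junctions seal the space between neighbouring epithelial cells. Claudins and occludin span the membrane there, and cytoplasmic scaffolds such as TJP1 (ZO-1) tie them to actin. Adherens junctions, built on cadherins and catenins, and desmosomes, in which plakoglobin (JUP) and desmoplakin (DSP) tie desmosomal cadherins to keratin filaments, carry mechanical load. EPCAM is an adhesion glycoprotein of carcinoma cells that binds CLDN7, and SPINT2 is a Kunitz-type inhibitor of membrane serine proteases such as those that activate hepatocyte growth factor. In the transition of epithelial to mesenchymal character many such genes are repressed by factors of the SNAI, ZEB and TWIST families, which bind E-box sequences.

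STAT3 transcript checked the labels. Its tested probe had intensities of 2778, 2241 and 2544 in siCon and of 589, 549 and 667 in siSTAT3 (replicates 1, 2 and 3 in order, as throughout). On that probe 23.9% of the control level remained (log2 change -2.07 ± 0.12, adjusted p = 2.44e-07). On the dimmer STAT3 probes 29.8% and 32.3% remained. Here and below, intensities are quantile-normalised and linear, a log2 change is siSTAT3 minus siCon with its standard error, a ratio is the fold that this log2 change gives, and adjusted p-values come from limma over all 14145 genes tested, with a threshold of 0.05. A gene was tested on its brightest probe if that probe's mean log2 intensity lay above the 40th percentile of all probes (intensity 89.9). No background was subtracted, and the median probe lay at 92.8, so any remaining background shrinks the folds of probes near that value. Precision is limited by the number of arrays. Nothing in the labels states that replicates came from separate cultures, and the p-values then cover only the spread among these samples, which may be technical. With 3 arrays against 3, the smallest two-sided p of an exact permutation test for 1 gene is 0.1.

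Markers of an epithelial ovarian carcinoma line were mostly present. KRT7, KRT8, KRT18, KRT19, ERBB2, PAX8 and MSLN lay between 442.5 and 5659.8 in siCon, whereas WT1 (102) and MUC16 (110.4) lay near the median probe. The epithelial cadherin CDH1 was near it too, at 98.4 ± 5.96 in siCon and 108 ± 5.89 in siSTAT3 (SD, n = 3), while the neural cadherin CDH2 gave 1402 ± 159.6 and 1642 ± 188. The junction genes below were thus measured in cells with keratins and EPCAM but with a CDH1 signal hardly above the median probe. None of 4 tested leukocyte or 5 tested endothelial markers passed. Their summed intensity ran from 1614 to 2176 (siCon) and 1649 to 1794 (siSTAT3) for leukocyte markers, most of it CD68, and from 455 to 532 and 465 to 493 for endothelial markers.

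None of the 8 tested genes passed the threshold after STAT3 siRNA, where 1.46% of all genes tested did. The 8 were EPCAM, CLDN1, CLDN4, CLDN7, JUP, DSP, TJP1 and SPINT2, and OCLN had no probe above the filter. At an unadjusted p under 0.05 there was 1 of 8, CLDN1, where 12.1% of all genes reached it. With the same limma test and array weights the count past the threshold was 1 of 8, again CLDN1. Under that setting 437 of all 14145 genes passed. The groups did not overlap for 2 of the 8, CLDN1 below and JUP above control, where 17.2% of all genes had groups that did not overlap. Of the 8 log2 changes 4 lay above 0 and 4 below, with a median of 0.01, and the median over all genes tested was also 0.01. In bulk RNA, fewer cells that express a gene and less RNA of it per cell cannot be told apart.

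**Figure D1:**
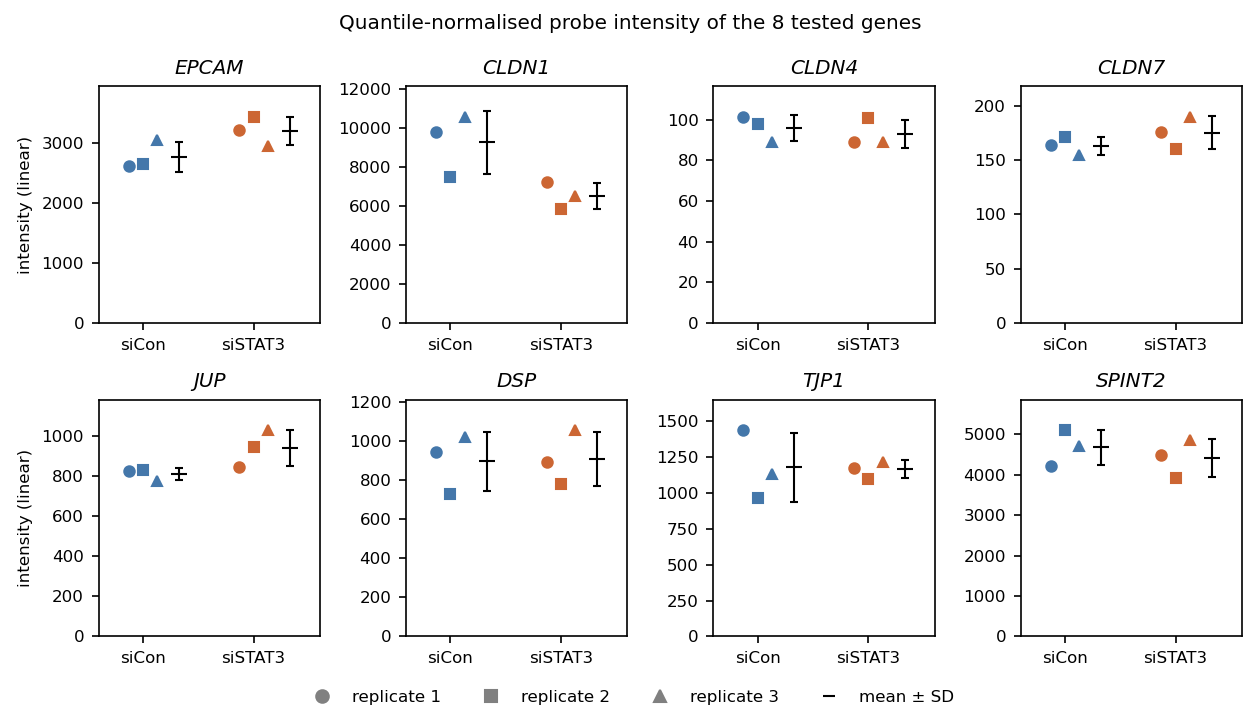
Intensity of the tested probe of 8 genes on each array, on linear axes that start at 0, with siCon in blue and siSTAT3 in orange, symbols for replicate number, and a bar for the mean ± SD (n = 3). CLDN1 is the gene whose siSTAT3 arrays (5869 to 7220.3) all lie under its siCon arrays (7484 to 10585), while DSP, TJP1 and SPINT2 overlap.

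Promoter windows of 7 of the 10 genes were taken from RefSeq (GRCh38.p14, 250 bases before to 50 after each annotated start), 13 windows in all. Those of EPCAM, F11R and SPINT2 were not analysed here. The 13 windows were searched for TTCNNNGAA, the core that STAT dimers bind, and for the E-box CAGGTG that SNAI factors bind, read on both strands, so that CACCTG counts too. Neither motif contains the other. TTCNNNGAA occurred in 0 of the 13 windows, beside 7.66% of 35116 windows of all genes, and CAGGTG in 6 of the 13, beside 20.6% of all. Those 6 were both OCLN windows and 1 window each of DSP, TJP1, CLDN7 and JUP. Both OCLN windows overlap each other and share bases, so the 13 are not independent. The CLDN1 window (minus strand, chr3:190322397-190322696) is printed because CLDN1 had the largest difference, and it held neither motif. One JUP window (minus strand, chr17:41785927-41786226) is printed because JUP was the other gene whose groups did not overlap, and it held CACCTG at -54 and CAGGTG at -43 from the start. One CLDN7 window (minus strand, chr17:7262429-7262728) held the most matches, at -174, -135, -20, -9 and 6. Capitals mark the E-box matches. A match is a description of letters, and a window without one says only that those letters are not in it.
CLDN1: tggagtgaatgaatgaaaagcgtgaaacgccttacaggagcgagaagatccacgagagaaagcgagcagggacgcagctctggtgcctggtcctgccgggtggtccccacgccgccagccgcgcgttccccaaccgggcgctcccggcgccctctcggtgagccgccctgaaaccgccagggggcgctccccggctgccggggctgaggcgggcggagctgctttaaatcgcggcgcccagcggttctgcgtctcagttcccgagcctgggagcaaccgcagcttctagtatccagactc
JUP: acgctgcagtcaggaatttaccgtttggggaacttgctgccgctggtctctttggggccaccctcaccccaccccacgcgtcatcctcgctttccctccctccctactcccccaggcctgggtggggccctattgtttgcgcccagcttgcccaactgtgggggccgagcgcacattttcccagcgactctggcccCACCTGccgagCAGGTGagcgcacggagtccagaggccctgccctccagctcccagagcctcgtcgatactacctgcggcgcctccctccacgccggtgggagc
CLDN7: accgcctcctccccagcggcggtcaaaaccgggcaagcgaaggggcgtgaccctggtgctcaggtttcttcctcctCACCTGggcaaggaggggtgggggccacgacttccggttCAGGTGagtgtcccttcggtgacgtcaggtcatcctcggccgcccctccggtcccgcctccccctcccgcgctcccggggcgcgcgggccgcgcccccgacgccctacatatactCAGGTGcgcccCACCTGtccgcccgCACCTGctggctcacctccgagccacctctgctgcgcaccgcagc

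CLDN1, a claudin that makes tight junctions less permeable, had the largest change among the 8 genes. Its single probe read 9793, 7484 and 10585 in siCon and 7220.3, 5869 and 6526 in siSTAT3. Every siSTAT3 array lay below every siCon array, but siCon replicate 2 and siSTAT3 replicate 1 were only 0.05 apart on the log2 scale. The means were 9287 ± 1612 and 6539 ± 676. The ratio of siSTAT3 over siCon from the log2 values was 0.709 (95% interval 0.583 to 0.863). The log2 change was -0.50 ± 0.13 and the adjusted p 0.0891, so CLDN1 did not pass, although 1.59% of all genes tested had a change of that size or larger. Without siCon replicate 2, the control array with the lowest CLDN1, the log2 change was -0.64 and the adjusted p 0.0155. Leaving out any other array gave adjusted p-values from 0.105 to 0.371. The smallest change among the genes that did pass was 0.43 on the log2 scale.

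**Figure D2:**
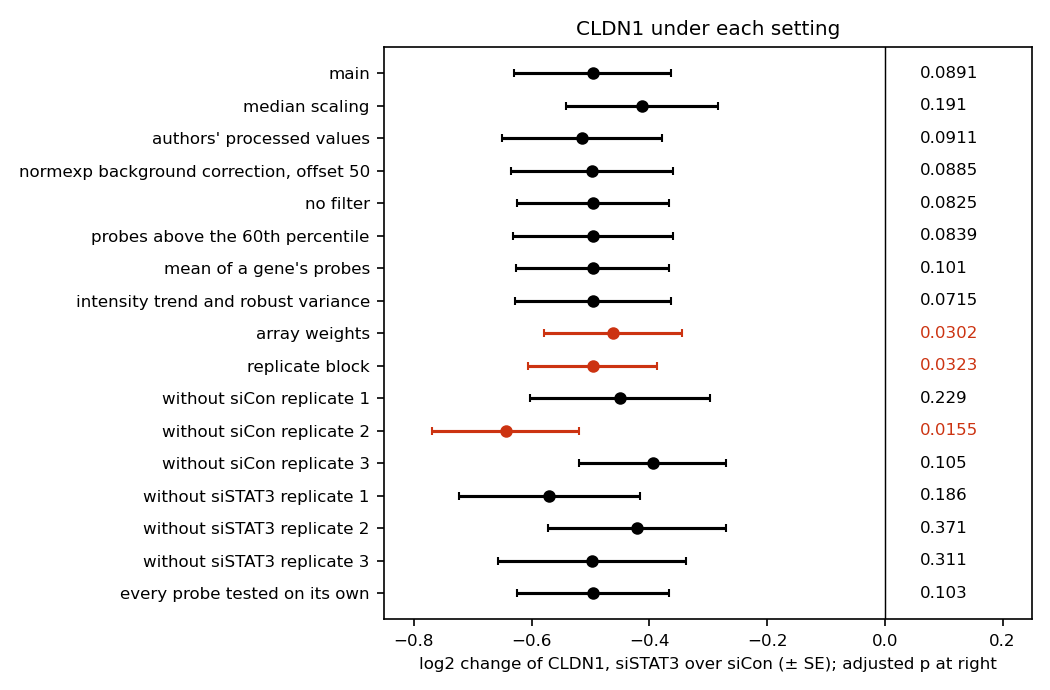
Log2 change of CLDN1 (siSTAT3 minus siCon, points, with bars of 1 SE) under the processing reported here and 16 alternatives, with limma's adjusted p at the right and settings past 0.05 in red. The change lies below 0 in each, from -0.64 to -0.39, and passes in 3, those with array weights, with the replicate number as a block and without siCon replicate 2.

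CLDN7, the claudin that binds EPCAM, gave 164, 171 and 154 in siCon and 176, 160.2 and 189.8 in siSTAT3. The groups overlapped, and the log2 change was 0.10 ± 0.11 (95% interval -0.13 to 0.33, adjusted p = 0.795). CLDN4, a claudin often abundant in ovarian carcinoma, gave 101, 97.8 and 88.9 in siCon and 89.1, 101 and 88.7 in siSTAT3. These values lie close to the median probe, and a change of CLDN4 would hardly show there. OCLN, the occludin gene, lay under the filter on both of its probes, with means of 84.7 and 83.0 in siCon and 83.8 and 80.2 in siSTAT3, and it was not tested. The 3 claudins thus gave log2 changes of -0.50, -0.05 and 0.10, and CLDN1 was the one with a signal far above the median probe.

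TJP1 encodes the scaffold ZO-1 that links claudins and occludin to actin. Its brighter probe read 1437, 966 and 1135 in siCon and 1177, 1096 and 1219 in siSTAT3. The siSTAT3 arrays lay inside the range of the siCon arrays, and the log2 change was 0.00 ± 0.13 with a 95% interval of -0.28 to 0.28 (adjusted p = 0.999). The interval covers ratios from 0.822 to 1.22, so a TJP1 change within that range cannot be told from none with these arrays. It does not give the smallest change that the test could call. The other TJP1 probe, annotated to another transcript, gave means of 543 ± 117 and 500.4 ± 6.11 and a log2 change of -0.09. On both probes the siCon arrays were spread more widely than the siSTAT3 arrays.

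JUP (plakoglobin), a catenin shared by desmosomes and adherens junctions, was the other gene whose groups did not overlap. Its brightest probe read 828, 829.8 and 777 in siCon and 848, 948 and 1029 in siSTAT3. All 3 siSTAT3 arrays were above all 3 siCon arrays, the nearest by 0.03 on the log2 scale. The log2 change was 0.21 ± 0.11 (95% interval -0.02 to 0.44, adjusted p = 0.470), and 17.6% of all genes tested had a change at least as large. The 2 further JUP probes lay near the median probe and gave log2 changes of -0.06 and 0.08.

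DSP (desmoplakin), the plaque protein that anchors keratin filaments, read 947, 729 and 1020.4 in siCon and 896, 780.2 and 1056 in siSTAT3 on its brightest probe. The groups overlapped, with the lowest array in siCon and the highest in siSTAT3, and gave a log2 change of 0.02 ± 0.14 (95% interval -0.28 to 0.32, adjusted p = 0.980). A dimmer DSP probe gave 143, 139 and 142 in siCon and 125, 128 and 127 in siSTAT3, with no overlap between groups and a log2 change of -0.16 ± 0.09 (adjusted p = 0.646 over all probes above the filter). The third DSP probe, near the median probe, gave -0.15. The DSP probes therefore disagreed in sign, and none of them passed. Of the 6 further probes above the filter in all genes here, the dimmer DSP probe was the 1 whose groups did not overlap, where 15.1% of all probes above the filter had such groups.

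EPCAM, the adhesion glycoprotein, read 2609, 2638 and 3050.1 in siCon and 3204, 3430.3 and 2950.1 in siSTAT3. Here siCon replicate 3 was above siSTAT3 replicate 3, and the other arrays separated. The means were 2766 ± 247 and 3195 ± 240.2. The ratio from the log2 values was 1.16 with a 95% interval of 0.983 to 1.36 (log2 change 0.21 ± 0.11, adjusted p = 0.489). The dimmer EPCAM probe gave 158 ± 4.19 and 148 ± 22.2, a log2 change of -0.10, opposite in sign to the bright probe. SPINT2, the Kunitz-type protease inhibitor, read 4226, 5097 and 4715 in siCon and 4478, 3925 and 4865 in siSTAT3. Its groups overlapped, and the log2 change was -0.08 ± 0.12 (95% interval -0.33 to 0.16, adjusted p = 0.860).

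**Figure D3:**
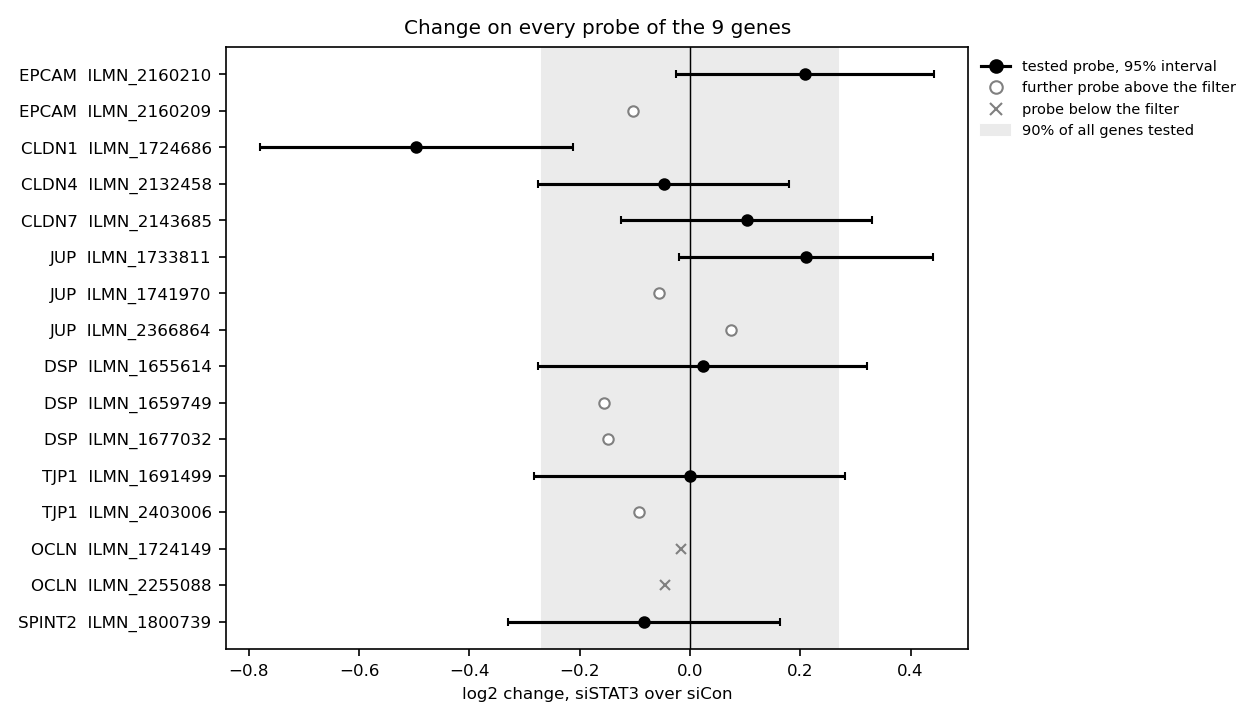
Log2 change (siSTAT3 minus siCon) of all 16 probes of the 9 genes, with black points and 95% intervals for the tested probes, open points for further probes above the filter and crosses for probes below it. The grey band holds 90% of the changes of all genes tested (up to 0.27 in size), and CLDN1 is the probe that lies outside it.

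The further probes did not add a call. Of 6 further probes above the filter, 4 had the opposite sign to the tested probe of their gene and 0 passed the threshold in the limma fit of all 29282 probes above the filter, where 0.874% of probes passed. Among the control arrays, siCon replicate 2 had the lowest reading of CLDN1, DSP and TJP1, at -0.30, -0.29 and -0.27 relative to the mean of the control arrays on the log2 scale, and the highest reading of SPINT2 (0.13). The JUP and EPCAM probes did not share that dip, with 0.03 and -0.06 on the same array. Without that array the log2 changes were -0.12 for DSP and 0.18 for EPCAM. Among the siSTAT3 arrays, replicate 2 was likewise the lowest for CLDN1, DSP and TJP1, at -0.65, -0.19 and -0.09 relative to the same control mean. For SPINT2 the same-numbered arrays differed, as siSTAT3 replicate 2 was the lowest of its group (-0.25).

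Other genes of cell junctions were read from lists of tight junction, adherens junction, desmosome, hemidesmosome, gap junction and apical-basal polarity genes. Of 70 tested genes in these lists 1 rose, 0 fell and 69 did not pass, against 0.396% of all genes higher and 1.07% lower. The median log2 change over the 70 was 0.00, beside 0.01 over all genes tested. The groups did not overlap for 7 higher and 6 lower genes, near the 8.63% and 8.56% of all genes.

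The gene that rose was CGNL1 (paracingulin), a cytoplasmic protein of tight and adherens junctions. It read 584, 527 and 604 in siCon and 807, 774.5 and 791 in siSTAT3, a ratio of 1.38 (log2 change 0.47 ± 0.10, adjusted p = 0.0334). All siSTAT3 arrays lay well above all siCon arrays. It no longer passed with an intensity trend and robust variance together (adjusted p = 0.0625), without siCon replicate 1 (0.0810), without siCon replicate 2 (0.101) and without siSTAT3 replicate 1 (0.186), 2 (0.133) or 3 (0.170). Its relative CGN (cingulin), chosen after its values were seen, gave 382 ± 55.4 and 508 ± 20.4 (log2 change 0.42 ± 0.12) with an adjusted p of 0.110. CLDN3 gave 181 ± 33.5 and 176 ± 20.7 (log2 change -0.03 ± 0.14).

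In the adherens junction list 0 of 14 genes passed. The smallest p-values were those of PLEKHA7, an apical junction protein (438 ± 6.43 to 357 ± 20.3, log2 change -0.30, adjusted p = 0.205), and CDH3, the placental cadherin, which lay near the median probe. CTNNB1 (beta-catenin) gave 841 ± 232 and 815 ± 71.9 with a log2 change of -0.01 ± 0.15, and the CTNND1 probes lay near the median probe. In the desmosome list 0 of 11 passed. The desmosomal cadherin DSC2 read 188, 199.8 and 215 in siCon and 267, 244 and 274 in siSTAT3, without overlap. Its log2 change was 0.38 ± 0.11 with an adjusted p of 0.0997, 0.0320 without siCon replicate 3 and 0.0178 with array weights. The cadherin DSG2 gave 511 ± 39.9 and 588 ± 55.1 (log2 change 0.20 ± 0.11), and the plaque protein PKP2 0.05 ± 0.11.

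None of the 6 hemidesmosome genes, 5 gap junction genes or 17 polarity genes tested passed. Among them the laminin receptor subunit ITGB4 gave a log2 change of 0.31 ± 0.10 (adjusted p = 0.207) and its partner ITGA6 -0.23 ± 0.15. Dimmer ITGB4 probes above the filter had the opposite sign, with -0.09 and -0.03. The connexin gene GJA1 read 527, 630.5 and 838 in siCon and 445, 497 and 521 in siSTAT3, without overlap. Its log2 change was -0.42 ± 0.14 with an adjusted p of 0.208. The hemichannel gene PANX1 gave 0.16 ± 0.14. The polarity genes LLGL1 (0.37 ± 0.12) and PARD6A (0.37 ± 0.12) had adjusted p-values of 0.164 and 0.193.

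**Figure D4:**
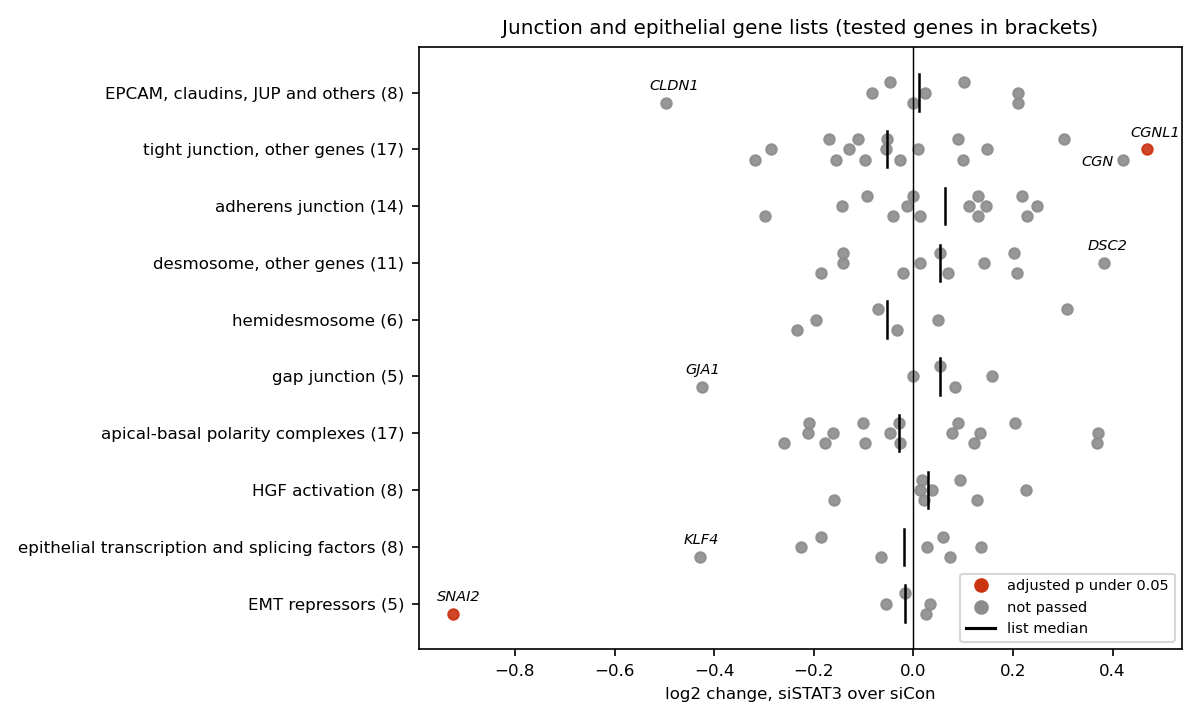
Log2 change (siSTAT3 minus siCon) of each tested gene, by list, with the number of tested genes in brackets, genes past an adjusted p of 0.05 in red, and a black line at each list's median. CGNL1 at 0.47 and SNAI2 at -0.92 are the red points in the lists drawn, and the list medians lie between -0.05 and 0.06.

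No gene in the lists drawn up around EPCAM and SPINT2 passed on its tested probe. Among 8 tested EPCAM partners and cleaving proteases the smallest p-values were those of FHL2, a LIM-domain protein that binds the EPCAM intracellular fragment (11687 ± 72.8 and 9715 ± 785, log2 change -0.27 ± 0.10, adjusted p = 0.294), and CD44, the hyaluronan receptor (-0.18 ± 0.12). A second bright FHL2 probe read 5684, 6543 and 7433 in siCon and 4801, 4559 and 4265 in siSTAT3, and it fell (log2 change -0.52, adjusted p = 0.0398 in the limma fit of all probes above the filter). A further 8 tested genes were those of hepatocyte growth factor, its activation and receptor, with the related ligand MST1 and its receptor MST1R. Among them SPINT1, the sister inhibitor of SPINT2, gave 96.3 ± 6.27 and 112 ± 5.13 without overlap (log2 change 0.23 ± 0.10, adjusted p = 0.405), close to the median probe. MST1 gave 0.13 ± 0.10. HGF, HGFAC, PRSS8 and TMPRSS4 also lay near the median probe (99.2, 89.4, 97.8 and 96.2 in siCon), where a change would hardly show. The same holds for LEF1 and TSPAN8 in the EPCAM list (94.0 and 91.2 in siCon). The proteases ST14 (matriptase), HPN and TMPRSS2 lay under the filter and were not tested.

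Among 5 tested repressors known from the loss of epithelial character, 1 fell. SNAI2 (SLUG), an E-box binding repressor of epithelial junction genes, read 1371, 1352 and 1382 in siCon and 533, 883 and 797 in siSTAT3. Its log2 change was -0.92 ± 0.15 (adjusted p = 0.00488), its other probe gave -0.67, and it passed under all 16 alternatives. TWIST1, TWIST2, ZEB1 and ZEB2 gave log2 changes between -0.06 and 0.03. ZEB2 read 90.1 in siCon and 93.1 in siSTAT3, near the median probe, where a change would hardly show. ZEB1 was also dim (127 and 123). SNAI1 lay under the filter (82.4 in siCon and 79.8 in siSTAT3) and was not tested. The epithelial splicing factors ESRP1 and ESRP2 lay under the filter and were not tested, and of 8 tested epithelial transcription factors none passed. The closest was KLF4 (307, 316 and 328 in siCon, 218, 255 and 235 in siSTAT3, log2 change -0.43 ± 0.10, adjusted p = 0.0582), followed by EHF (-0.23 ± 0.11). KLF4 passed in 3 of 16 alternatives. These were array weights (adjusted p = 0.0209), the mean of a gene's probes (0.0477) and leaving out siCon replicate 3 (0.0478). The other KLF4 probe lay under the filter, so that mean held the tested probe alone. Of the 9 line markers named at the start 1 fell and 8 did not pass. Keratin KRT8 fell from 1395 ± 183 to 969.8 ± 86.1 (log2 change -0.52 ± 0.12, adjusted p = 0.0458), while MSLN gave -0.41 (adjusted p = 0.0606), KRT19 -0.19, WT1 -0.18, KRT18 0.00, ERBB2 0.08, PAX8 0.12 and KRT7 0.13, with MUC16 at -0.04. KRT8 no longer passed under median scaling (adjusted p = 0.107), with an intensity trend and robust variance together (0.0592), with every probe tested on its own (0.0513), without siCon replicate 1 (0.150) or 2 (0.112), and without siSTAT3 replicate 1 (0.193), 2 (0.244) or 3 (0.126).

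Among 7 tested fibroblast and mesothelial markers LRRN4 fell (845 ± 56.1 to 587 ± 29.6, log2 change -0.52 ± 0.10, adjusted p = 0.0191), and the other 6 did not pass. LRRN4 no longer passed under median scaling (adjusted p = 0.0594), without siCon replicate 1 (0.0815) and without siSTAT3 replicate 1 (0.140), 2 (0.0655) or 3 (0.120). The summed intensity of the 7 ran from 1389 to 1562 on siCon arrays and from 1179 to 1231 on siSTAT3 arrays, more of it LRRN4 than any other marker, and the other 6 gave log2 changes between -0.17 and 0.09. Of these 6, the collagen genes COL1A1 and COL1A2, DCN and the mesothelial markers CALB2 and UPK3B lay near the median probe. The part of these markers in the CLDN1 difference was not tested.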

How the data were processed

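The authors deposited 1 table of unnormalised probe intensity and 1 of processed intensity for 6 bead arrays, made with BeadStudio per the submitters' processing notes. The sources used here do not state a background subtraction. Each processed column had a median of 94.2 and the order of probes of its unnormalised column (rank correlation 1). Group and replicate number came from the sample titles.

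The unnormalised intensity was quantile-normalised and taken to log2 in limma 3.58.1 (R 4.3.3), without background subtraction. Of 48803 probes, 28098 had 1 gene symbol, 13 several and 20692 none. Symbols were updated through RefSeq (GRCh38.p14). Probes above the 40th percentile of mean log2 intensity were kept, with 1 probe a gene. The two-sided test was limma's (lmFit, eBayes), with p-values adjusted by Benjamini-Hochberg.

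In a check on simulated data for siSTAT3 against siCon (14145 genes), the test found 47 of 100 genes with a true log2 change of 0.5, 94 of 100 with a true change of 1, and 3 genes with none. The simulated noise was drawn independently for each gene and array. The check therefore does not cover shifts that many genes share on an array, and its false calls need not hold for these arrays.

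The genes and lists were chosen with earlier results of these data known. Genes named are STAT3, the 10 genes, in each list those past the threshold (up to 4) or the 2 with the smallest adjusted p, and a fixed set (CDH1, CDH2, CTNNB1, CTNND1, SNAI2, ST14, SPINT1, CLDN3, DSG2 and PKP2, with some items not reported here). No pair of arrays was identical. The alternatives are those named in the closing section.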

Additional observations from a re-analysis of the deposited data

How the results depend on the processing

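Besides leaving out each of the 6 arrays, 10 other settings were run: scaling to the median, the processed table, normexp (offset 50), a stricter filter (60th percentile) and none, the mean of a gene's probes, each probe by itself, an intensity trend together with robust variance, weights per array, and the replicate block. The count of 207 genes became 437 with array weights and 61 to 407 when an array was left out. Of the 8 genes 1, CLDN1, passed with array weights and 1 with the replicate block (CLDN1, adjusted p = 0.0323, with 283 genes over the whole array), and 0 to 1 when an array was left out. Same-numbered arrays correlated in their deviations from the group means at 0.05, 0.18 and 0.07, each siSTAT3 array best with the siCon array of its number, a hint from the data, not from the design. Of the 70 other junction genes 0 passed with the intensity trend and robust variance together, 2 with array weights and 0 to 2 when an array was left out. The median log2 change of the 8 genes was -0.047 with the mean of probes and -0.026 to 0.088 when an array was left out. STAT3 passed in each setting (-2.15 to -1.81). Signs turned, with neither value past the threshold, under median scaling for TJP1 (0.029), CLDN3 (0.0021) and CTNNB1 (0.024), with the mean of probes for DSP (-0.094), CTNND1 (-0.011) and CD68 (0.056), and with array weights for CTNNB1 (0.096) and PKP2 (-0.0080). With an array left out, log2 changes also crossed 0 for TJP1 (-0.14 to 0.15), DSP (-0.12 to 0.13), SPINT2 (-0.15 to 0.00062), CLDN3 (-0.17 to 0.098), CTNNB1 (-0.17 to 0.20), PKP2 (-0.014 to 0.16), PANX1 (-0.0017 to 0.31) and PECAM1 (-0.26 to 0.030). EPCAM, CLDN1, CLDN4, CLDN7 and JUP kept their sign in each setting that tested them. The cause was not tested. CLDN4 and OCLN lay too close to the median probe for a change to be read.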
